A study of Mus musculus with 8 samples.

Results

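IGF1 and the IGF binding proteins were examined in liver cells of WT and LRP1 eKO mice as 8 rows of the deposited table of protein-coding genes, Igf1 and Igfbp1 to Igfbp7, chosen by gene symbol. The table holds 22520 genes, of which 11391 reached a signal of 1 in 4 or more of the 8 libraries and were tested. Of the members, 7 were tested and Igfbp5 was below this level. In LRP1 eKO libraries Igfbp1, Igfbp2, Igfbp4, Igfbp6 and Igfbp7 were lower, Igfbp3 was higher, and Igf1 was higher in 3 of 4 libraries.

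The WT group was LRP1 f/f; Cdh5-CreER-/- littermates and the LRP1 eKO group was LRP1 f/f; Cdh5-CreER+/- mice, with 4 libraries each, labelled C57BL/6 and postnatal day 14. Both groups carry the floxed Lrp1 alleles, and the Cdh5 promoter drives a tamoxifen-dependent Cre in endothelial cells. CreER was present in the LRP1 eKO group only, so that its effect and that of Lrp1 loss cannot be told apart. The labels call the cells liver microvesicular cells, the series describes them as microvascular endothelial cells of the liver, and the labels do not say whether each library is a separate animal, so that p-values measure the spread between these libraries.

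IGF1 is a growth factor that signals through the receptor tyrosine kinase IGF1R. The liver is its main endocrine source, where growth hormone acting on hepatocytes drives its transcription. IGFBP1 to IGFBP6 bind IGFs with high affinity, prolong their life in blood and control how much reaches the receptor, whereas IGFBP7 binds IGFs weakly. LRP1 is a large endocytic receptor that takes up many ligands and has been described as a receptor for IGFBP3.

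Lrp1, the targeted gene, averaged 65.5 ± 13.3 in WT libraries and 4.41 ± 1.65 (SD, n = 4 each) after knockout, and its log2 fold change was -3.66 (limma adjusted p = 2.8e-06). All values are quantile-normalized, library totals lay between 484445 and 485947 by construction, and the depth is unknown. WT replicate 4 was the library farthest from its group median of log2 signal for 61.7% of tested genes, and LRP1 eKO replicate 2 for 37.2%.

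Endothelial defining markers were low in these libraries. The study's methods describe isolation of such cells with beads carrying a PECAM-1 antibody. The mean of Pecam1 was 2.09 in WT libraries and 3.02 after knockout, that of Cdh5 1.86 and 3.70, and that of Kdr 4.05 and 4.49. The 10 pan-endothelial genes summed to between 37.9 and 39.7 in WT libraries and between 38.9 and 55.1 in LRP1 eKO libraries. Mesothelial markers were far higher, with Msln, the mesothelin gene, at 1020 in WT and 1305 in LRP1 eKO libraries, Upk3b at 396 and 370, and Wt1 at 103 and 97.8. The 6 mesothelial genes summed to between 1548 and 1953 in WT libraries and between 1986 and 2202 in LRP1 eKO libraries. In the stellate and fibroblast list Lrat and Reln were at 0.112 and 0.367 in WT libraries, while Dcn, for decorin, was at 563 in WT and 457 in LRP1 eKO libraries. In the smooth muscle list Acta2, the smooth muscle actin gene, was at 811 and 1066 and Tagln at 674 and 764. Other genes of that list were far lower, with Smtn at 44.5 and 43.0 and Actg2 at 7.97 and 14.4. Cnn1 was at 4.70 and 6.09, and Myh11 at 0.534 and 1.53. The marker levels therefore go against the endothelial label, and the libraries are called by genotype below. In these same libraries Lrp1, the target of the endothelial Cre, went from 65.5 to 4.41, and which cells lost it was not tested. The libraries are bulk samples, in which fewer cells of a type and less RNA per cell cannot be told apart.

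**Figure D1:**
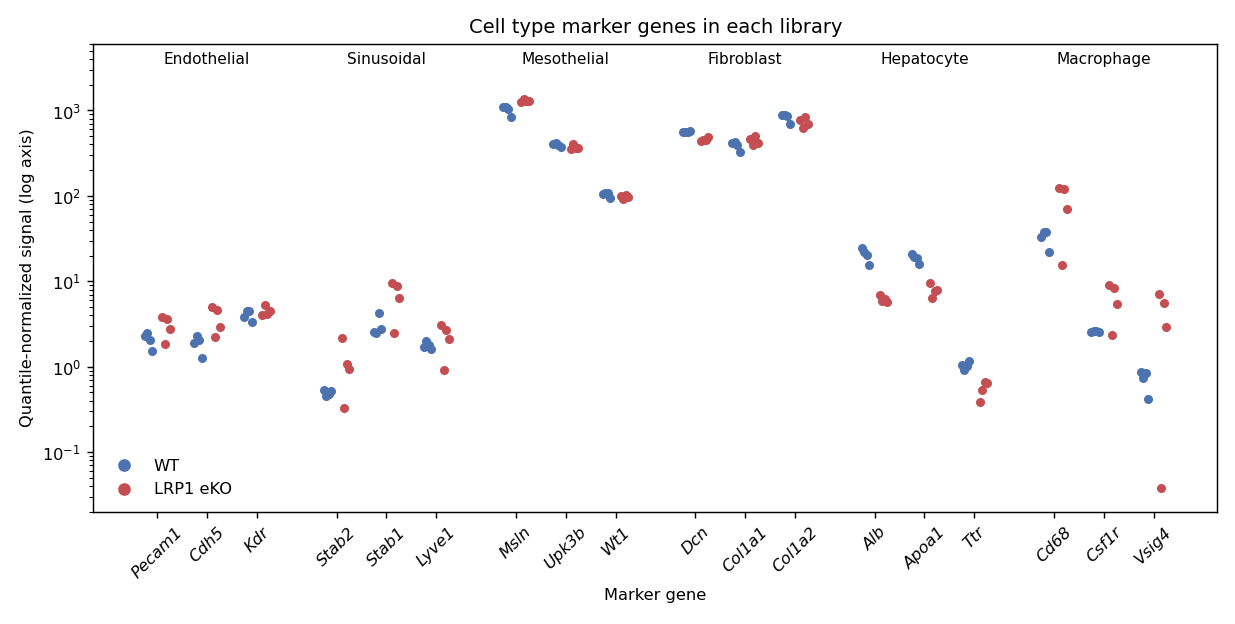
Quantile-normalized signal (log axis) of 3 marker genes for each of 6 cell types, with 1 point per library, WT in blue and LRP1 eKO in red. The endothelial genes Pecam1, Cdh5 and Kdr lie far below the mesothelial gene Msln, whose mean was 1020 in WT libraries.

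The upstream sequences of 3 binding protein genes are shown because Igfbp1 and Igfbp4 had the largest decreases of the family and Igfbp3, the neighbour of Igfbp1, moved the other way. On GRCm38 Igfbp1 lies on chromosome 11 from 7197782 to 7202546 on the plus strand and Igfbp3 from 7206086 to 7213923 on the minus strand. Their 3′ ends are 3539 bases apart with 0 annotated genes between. Each sequence below is the 250 bases before the start site from RefSeq (GRCm38.p6), 5′ to 3′ on the gene's strand, at chr11:7197537-7197786 for Igfbp1, chr11:99040994-99041243 for Igfbp4 and chr11:7213924-7214173 for Igfbp3, and capitals mark motif matches.
Igfbp1: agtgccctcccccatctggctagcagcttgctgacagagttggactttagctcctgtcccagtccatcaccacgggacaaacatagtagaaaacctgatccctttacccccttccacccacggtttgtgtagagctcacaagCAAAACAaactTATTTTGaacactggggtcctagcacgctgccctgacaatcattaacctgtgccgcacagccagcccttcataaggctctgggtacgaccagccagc
Igfbp4: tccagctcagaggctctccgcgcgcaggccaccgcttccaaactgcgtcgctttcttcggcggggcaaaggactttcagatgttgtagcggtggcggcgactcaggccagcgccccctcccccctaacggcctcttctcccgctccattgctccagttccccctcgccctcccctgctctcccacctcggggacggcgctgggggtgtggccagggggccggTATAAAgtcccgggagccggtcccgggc
Igfbp3: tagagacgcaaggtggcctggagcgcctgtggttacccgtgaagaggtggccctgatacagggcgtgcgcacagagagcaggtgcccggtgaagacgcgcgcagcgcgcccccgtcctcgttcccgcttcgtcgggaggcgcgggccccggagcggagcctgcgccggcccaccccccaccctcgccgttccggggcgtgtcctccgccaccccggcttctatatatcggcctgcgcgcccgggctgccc
A set of 5 short motifs was searched on both strands, namely TGTTTAC for FoxO factors, TGTTTTG and TATTTTG as the cores of an insulin response sequence, TTCNNNGAA for STAT5, and TATAAA. The Igfbp1 sequence holds both insulin response cores, the first on the opposite strand, at 108 and 97 bases before the start site. Igfbp1 is a textbook gene that insulin represses and FoxO factors activate through such a sequence. Of the 32851 upstream sequences of this length, 5.56% held TGTTTTG, 3.95% held TATTTTG and 0.381% held both. The Igfbp4 sequence holds TATAAA, found in 12.4% of all sequences, at 28 bases before the start site. The Igfbp3 sequence holds none of these letters. TGTTTAC (3.17% of all) and TTCNNNGAA (7.02%) were not found in the upstream sequence of any member. These matches are letters in a window and say nothing on binding in these cells.

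Igf1, the ligand, lies on chromosome 10 from 87858265 to 87937042. Its signals in WT replicates 1 to 4 were 2.74, 2.68, 3.67 and 2.92, and in LRP1 eKO replicates 1 to 4 they were 9.08, 2.64, 8.95 and 5.94. The other 3 LRP1 eKO libraries were above every WT library, while LRP1 eKO replicate 2 was below all of them, so that the groups overlap. The mean went from 3.00 ± 0.458 to 6.65 ± 3.04 (SD, n = 4 each), and the log2 fold change of signal + 1 was 0.83 (standard error 0.28, 95% interval 0.21 to 1.46, limma adjusted p = 0.038). The exact two-sided permutation test over the 8 libraries gave p = 0.143, where 0.029 is the smallest possible. LRP1 eKO replicate 2 decided the size, since without it the log2 fold change was 1.15 (limma adjusted p = 3.3e-04), and without any 1 of the other 7 libraries the adjusted p lay between 0.05 and 0.099. The antisense gene Igf1os overlaps Igf1 without shared exons.

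The summed signal of macrophage genes had the same order as Igf1 over the 4 LRP1 eKO libraries, but not over the WT libraries. WT replicate 4 had the lowest sum of its group, at 112, with Igf1 at 2.92, above WT replicates 1 and 2. The 12 macrophage and Kupffer genes found in the table summed to between 112 and 219 in WT libraries, and to 722, 52.3, 659 and 387 in LRP1 eKO replicates 1 to 4. Of its 8 tested genes 1 passed the test, Csf1r, the receptor of the growth factor that maintains macrophages, which went from 2.58 ± 0.0557 to 6.32 ± 3.10 (SD, n = 4 each, limma adjusted p = 0.030). Of the defining markers, Adgre1 was not analysed here, Clec4f, a gene of Kupffer cells, was listed at 0 in all 4 WT libraries and was at 0.826, 0.124, 0.537 and 0.427 in LRP1 eKO replicates 1 to 4, so that it was above WT also in replicate 2 (limma adjusted p = 0.037 in the fit over all genes). Cd68 was at 32.6 and 82.7. The ratio of Igf1 to Csf1r, a pair chosen after the values were seen, was 1.02 to 1.41 in WT and 0.993 to 1.12 in LRP1 eKO libraries. Csf1r varied little over the WT libraries, from 2.52 to 2.64, and was near them at 2.36 in LRP1 eKO replicate 2. Other genes of the list fell further in that library, with C1qa at 0.660 against 2.89 to 7.91 in WT libraries. Marco was at 0.0861 there against 0.619 to 1.43. The summed signal of the 10 sinusoidal endothelial genes also had the order of Igf1 over the LRP1 eKO libraries. It was 9.41 to 13.4 in WT libraries and 36.3, 10.6, 32.4 and 22.4 in LRP1 eKO replicates 1 to 4. The 2 genes of this list that passed the test, Oit3 and Flt4, were above every WT library also in replicate 2. They were at 1.94 and 2.24 there, against at most 0.729 and 1.71 in WT libraries. The part of either cell type in the Igf1 values was not tested.

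Of the 7 members tested, 2 were higher at an adjusted p below 0.05 (Igf1 and Igfbp3), where 19.0% of all tested genes were, and 5 were lower (Igfbp1, Igfbp2, Igfbp4, Igfbp6 and Igfbp7), where 22.2% of all tested genes were. At an adjusted p below 0.05 with a change of at least 2-fold, 0 members were higher against 0.869% of all tested genes, and 2 were lower, Igfbp1 and Igfbp4, against 0.79%. The groups did not overlap for 1 member that was higher, against 20.0% of all tested genes, and for 5 that were lower, against 22.5%. The median log2 fold change was -0.57 over the 7 members and -0.0095 over all tested genes.

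**Figure D2:**
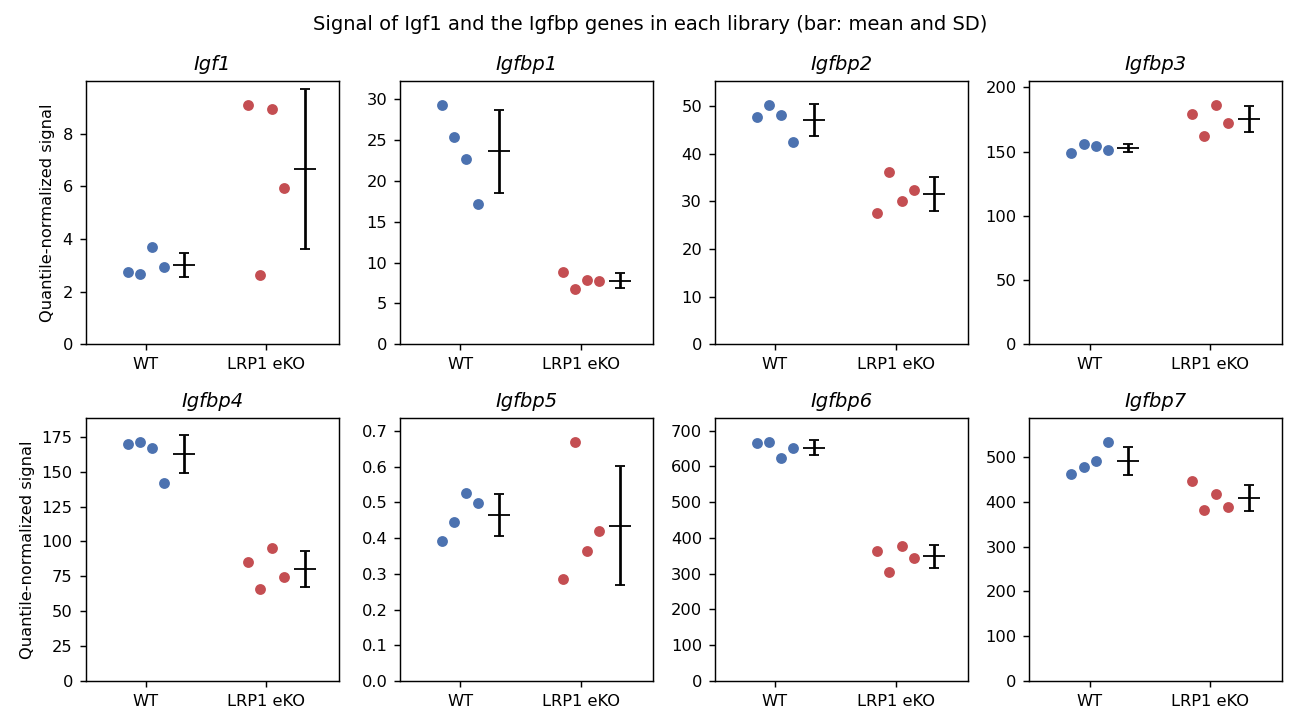
Quantile-normalized signal of the 8 members in each library, on a linear axis from 0 in each panel, WT in blue and LRP1 eKO in red, with the mean and SD of 4 libraries beside the points. The groups are separate for Igfbp1, Igfbp2, Igfbp3, Igfbp4, Igfbp6 and Igfbp7 and overlap for Igf1 and Igfbp5.

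Igfbp1, the insulin-repressed binding protein made mainly by hepatocytes, reached 29.3, 25.4, 22.6 and 17.1 in WT replicates 1 to 4 but 8.85, 6.72, 7.85 and 7.77 in LRP1 eKO replicates 1 to 4. Every LRP1 eKO library was below every WT library. The mean went from 23.6 ± 5.12 to 7.80 ± 0.871 (SD, n = 4 each), which is 33.0% of the WT mean. Its log2 fold change of -1.46 (standard error 0.14, 95% interval -1.78 to -1.15, limma adjusted p = 4.6e-05) was the largest of the family in size and ranked 23 among all decreases.

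Hepatocyte genes, like Igfbp1, were lower in LRP1 eKO libraries. So were the 3 tested skeletal muscle genes, with a median log2 fold change of -1.81. All 6 tested genes of the hepatocyte list fell and 5 of them at least 2-fold, with a median log2 fold change of -1.53 over the 6. The 12 genes summed to between 1493 and 1544 in WT and between 615 and 901 in LRP1 eKO libraries, mostly from Trf, which encodes transferrin, and to between 93.7 and 141 and between 33.8 and 45.2 without it. Among the defining markers Alb, the albumin gene, fell from 20.8 to 6.15 and Apoa1 from 18.6 to 7.90, Ttr was at 1.04 and 0.555, and none was at 0. The ratio of Igfbp1 to Alb, a pair chosen after the values were seen, was 1.09 to 1.19 in WT libraries. It was 1.15 to 1.36 in LRP1 eKO libraries, and these ranges overlap. Both genes had the same order over the 4 WT libraries, but not over the LRP1 eKO libraries. There Igfbp1 was lowest in replicate 2, at 6.72, and Alb in replicate 4, at 5.70. The part of hepatocyte RNA in the Igfbp1 values was not tested.

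**Figure D3:**
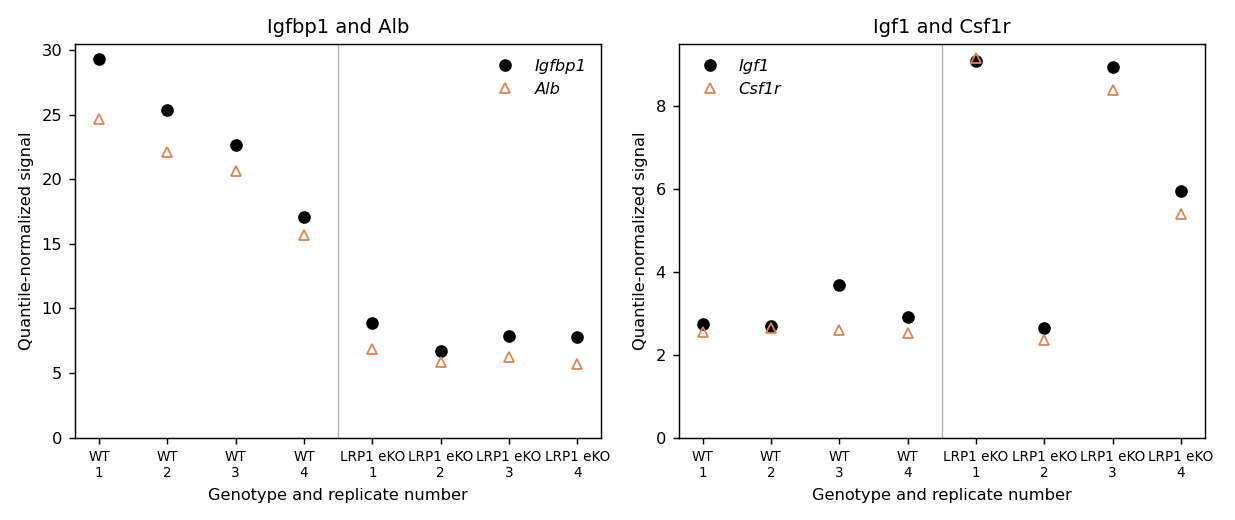
Quantile-normalized signal of Igfbp1 beside Alb (left) and of Igf1 beside Csf1r (right) in each of the 8 libraries, on linear axes from 0. Igfbp1 and Alb are high in all WT libraries and low in all LRP1 eKO libraries, and both Igf1 and Csf1r are low in LRP1 eKO replicate 2, at 2.64 and 2.36.

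Igfbp4, on chromosome 11 from 99041244 to 99054392, encodes a binding protein that mostly inhibits IGF action and is cleaved by the protease PAPP-A. Its signals were 170, 172, 167 and 142 in WT replicates 1 to 4 and 85.6, 65.6, 95.2 and 74.8 in LRP1 eKO replicates 1 to 4. The groups were well apart, and WT replicate 4 was low for its group. The log2 fold change was -1.02 (standard error 0.11, 95% interval -1.26 to -0.78, limma adjusted p = 8.7e-05), from a mean of 162.7 ± 13.8 to 80.3 ± 12.8 (SD, n = 4 each). Because this is close to 2-fold, leaving out WT replicate 1, WT replicate 2, LRP1 eKO replicate 2 or LRP1 eKO replicate 4 took it below that size, with -0.93 as the smallest change.

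Igfbp6, on chromosome 15 from 102144362 to 102149511, encodes a binding protein that prefers IGF2. Its signals in WT replicates 1 to 4 were 666, 669, 624 and 652, falling to 364, 305, 378 and 345 in LRP1 eKO replicates 1 to 4. No library lay between the groups. Its log2 fold change of -0.91 (standard error 0.065, 95% interval -1.05 to -0.76) had the smallest adjusted p of the members (limma adjusted p = 6.8e-06), from 652.6 ± 20.6 to 347.9 ± 31.6 (SD, n = 4 each).

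Igfbp2, a binding protein abundant in fetal liver, lies on chromosome 1 from 72824503 to 72852474, with the 3′ end of Igfbp5 5457 bases away. Its signals were 47.7, 50.2, 48.0 and 42.3 in WT replicates 1 to 4 and 27.5, 36.1, 30.1 and 32.3 in LRP1 eKO replicates 1 to 4. The lowest WT library was above the highest LRP1 eKO library. The mean went from 47.1 ± 3.35 to 31.5 ± 3.65 (SD, n = 4 each), and the log2 fold change was -0.57 (standard error 0.083, 95% interval -0.75 to -0.38, limma adjusted p = 6.1e-04).

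Igfbp7, a secreted protein of vessel walls and stroma, was at 462, 478, 490 and 534 in WT replicates 1 to 4 and at 447, 382, 416 and 389 in LRP1 eKO replicates 1 to 4. The groups were separate, with LRP1 eKO replicate 1 nearest to WT. The log2 fold change was -0.27 (standard error 0.063, 95% interval -0.41 to -0.12, limma adjusted p = 0.0083), from 491.1 ± 31.0 to 408.6 ± 29.7 (SD, n = 4 each). On chromosome 5, where Igfbp7 lies from 77349240 to 77408041, its exons overlap those of Polr2b on the opposite strand, and the sources used here do not say whether reads were counted by strand, so that its values are uncertain.

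Igfbp3, the main carrier of IGFs in adult blood, was the only one of the 6 binding proteins tested that was higher in LRP1 eKO libraries. It was at 149, 156, 154 and 151 in WT replicates 1 to 4 and at 179, 162, 186 and 172 in LRP1 eKO replicates 1 to 4. LRP1 eKO replicate 2, the lowest of its group, was still above every WT library. The rise was small, from 152.6 ± 3.05 to 175.1 ± 10.1 (SD, n = 4 each), and the log2 fold change was 0.20 (standard error 0.048, 95% interval 0.09 to 0.30, limma adjusted p = 0.0095). For these 6 binding proteins the exact two-sided permutation test gave p = 0.029 each.

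Igfbp5, on chromosome 1 from 72857932 to 72874884, was the lowest of the members and below the filter on low signals. Its signals were 0.392, 0.446, 0.526 and 0.499 in WT replicates 1 to 4 and 0.287, 0.670, 0.365 and 0.419 in LRP1 eKO replicates 1 to 4. All WT values lay within the LRP1 eKO range. In the fit over all 22520 genes its log2 fold change was -0.04 (95% interval -0.23 to 0.16, limma adjusted p = 0.96), and the exact two-sided permutation p was 0.686.

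**Figure D4:**
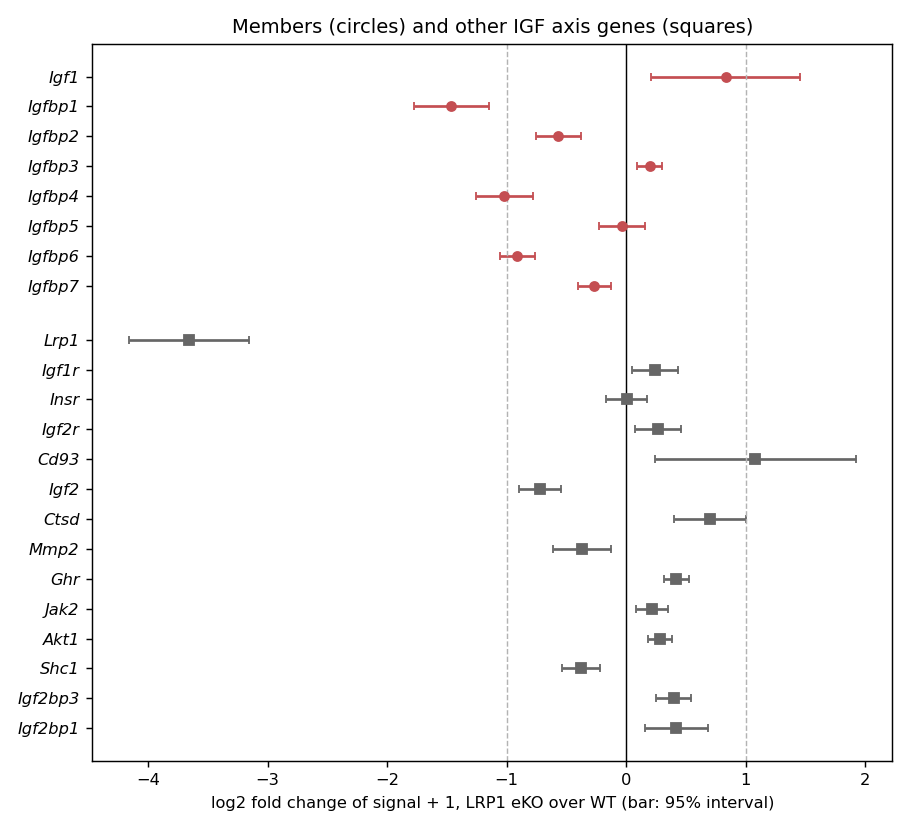
Log2 fold change of signal + 1, LRP1 eKO over WT, with its 95% interval, for the 8 members (red circles) and 14 other genes of the IGF axis (grey squares), with dashed lines at 2-fold. Igfbp1 and Igfbp4 lie past the lower line, and the interval of Igfbp5 spans 0.

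Levels can be compared between genes only if they are per length, which was checked on 1296 genes seen in 1 or 2 libraries. Their lowest signal fell with exonic length (Spearman correlation across genes -0.598), with a median of 0.0553 for genes under 1000 bases (n = 231) and 0.0067 for genes over 5000 bases (n = 163), as values per length would. On this scale the WT order of signal levels was Igfbp6, Igfbp7, Igfbp4, Igfbp3, Igfbp2, Igfbp1, Igf1 and Igfbp5. Igfbp4 and Igfbp3 overlapped in this order, and all other neighbours were apart. Igfbp6 and Igfbp7 stood at percentiles 99.5 and 99.2 of all 22520 genes by WT mean, Igf1 at 57.7 and Igfbp5 at 45.6. In LRP1 eKO libraries Igfbp7 was above Igfbp6, and Igfbp3 above Igfbp4, in all 4 libraries. The ratio of the Igfbp6 to the Igfbp7 signal was 1.22 to 1.44 in WT and 0.798 to 0.908 in LRP1 eKO libraries. Igfbp1 and Igf1 overlapped there.

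The signals of the 7 binding protein genes summed to 1530 ± 19.0 in WT libraries and to 1052 ± 75.5 after knockout (SD, n = 4 each), with ranges of 1507 to 1551 and 959 to 1114. Igfbp6 made up 63.7% of the difference of 478, Igfbp4 and Igfbp7 each 17.2%, and Igfbp3 offset it by -4.71%. The share of Igfbp6 in the sum went from a mean of 42.6% in WT to 33.1% in LRP1 eKO libraries, and that of Igfbp4 from 10.6% to 7.60%. Igfbp7 went from 32.1% to 38.9% and Igfbp3 from 9.97% to 16.7%. As the sum fell, the share of Igfbp7 was larger although its own signal was lower.

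**Figure D5:**
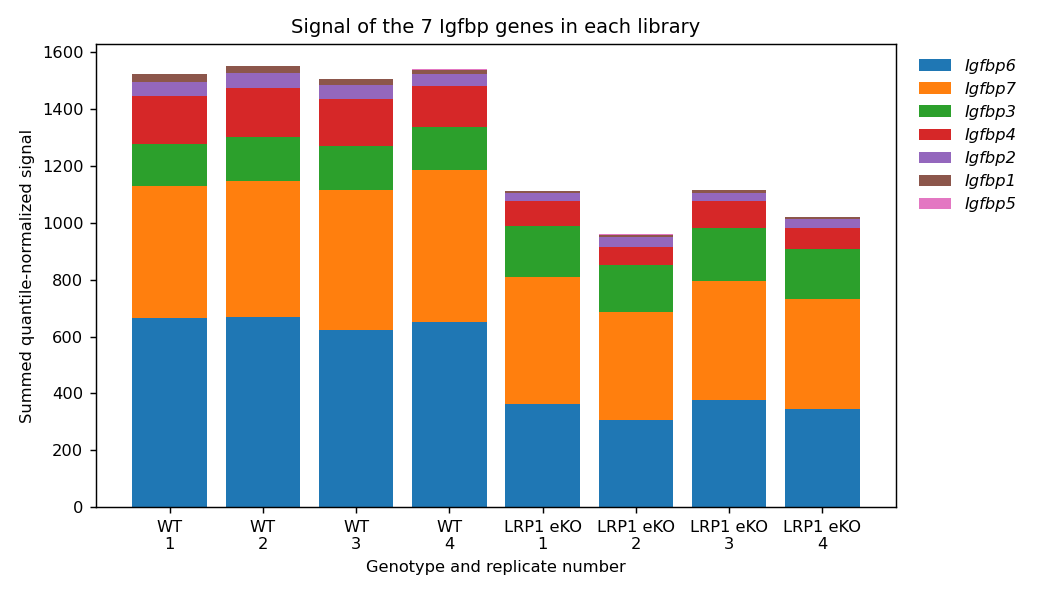
Quantile-normalized signal of the 7 binding protein genes stacked for each library, with bars from 0. The sums lie between 1507 and 1551 in WT and between 959 and 1114 in LRP1 eKO libraries, and the Igfbp6 part shows the largest loss.

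Other genes of the IGF axis were taken from a list of 47, of which 34 were tested. At an adjusted p below 0.05, 11 of the 34 were higher, against 19.0% of all tested genes, and 4 were lower, against 22.2%. At 2-fold 1 was higher, against 0.869%, and the median log2 fold change was 0.06. Without the filter on low signals 5 of the 47 were higher and 7 lower, against 8.07% and 10.6% of all 22520 genes, and 0 were higher at 2-fold, against 0.4%. Of the ligands Igf2, the fetal IGF, was the only gene tested, and it fell from 14.3 ± 1.56 to 8.26 ± 0.541 (SD, n = 4 each), and the log2 fold change was -0.72 (limma adjusted p = 9.8e-05). Igfals, which encodes the partner of IGFBP3 in the circulating complex, had means of 0.0742 and 0.0390, and Ins1 was listed at 0 in all libraries.

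Of 5 receptor genes tested 3 were higher. Igf1r, the IGF1 receptor, was at 9.58 ± 1.24 and 11.4 ± 0.531 (SD, n = 4 each), and the log2 fold change was 0.24 (limma adjusted p = 0.045), and Igf2r, the clearance receptor for IGF2, had one of 0.27 (limma adjusted p = 0.031). Insr, the insulin receptor gene, had a log2 fold change of 0.0033 with a 95% interval from -0.17 to 0.18 (limma adjusted p = 0.98). Cd93, a receptor bound by IGFBP7 in vessels, passed 2-fold with a log2 change of 1.08 (limma adjusted p = 0.043), but its groups overlapped, with 1.25 in LRP1 eKO replicate 2 against 4.39 to 7.82 in the other libraries of the group.

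The proteases gave 2 higher and 1 lower of 7 tested genes. Ctsd, the cathepsin D gene, went from 727 ± 75.2 to 1197 ± 233 and Mmp2, a matrix metalloproteinase, from 135 ± 5.66 to 105.0 ± 17.8 (SD, n = 4 each), with log2 fold changes of 0.70 and -0.37 (limma adjusted p = 0.0029 and 0.022). In the growth hormone arm 2 of 6 tested genes were higher, the receptor Ghr at 0.42 (limma adjusted p = 1.3e-04) and its kinase Jak2 at 0.22 (limma adjusted p = 0.016), both on the log2 scale. Receptor substrates and adaptors gave 1 higher and 2 lower of 10, with Akt1, a kinase downstream of the receptor, at 0.29 (limma adjusted p = 0.0010) and the adaptor Shc1 at -0.37 (limma adjusted p = 0.0026). The list of binding protein relatives gave 3 higher of 5, namely Igf2bp1, Igf2bp2 and Igf2bp3, while Htra3 and Kazald1 did not pass (limma adjusted p = 0.65 and 0.059). The smallest adjusted p there were those of Igf2bp3 and Igf2bp1, with log2 fold changes of 0.40 and 0.42 (limma adjusted p = 0.0011 and 0.019). All 3 Igf2bp genes encode proteins that bind IGF2 mRNA, not IGF, and they are counted among the 11 higher axis genes.

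The genes most like each member were found by the Pearson correlation of log2 signals over the 8 libraries after the mean of each genotype was subtracted, given as a description over all tested genes with no p. Points share their library, and WT replicate 4 and LRP1 eKO replicate 2 carry much of the spread. Igf1 was most like Ddit4 (r = 0.991), Fcna (r = 0.990) and Stab1 (r = 0.988), and Stab1 is a scavenger receptor gene of sinusoidal endothelium and macrophages. Igfbp1 was most like Frmd4a, Pcyox1l and Numa1 (r from 0.975 to 0.987), and Igfbp2 was most like Zfp563, Tbx20 and Degs1 (r from 0.981 to 0.987). Igfbp3 was most like Pdzrn3, Ptgis and Tmem154 (r from 0.985 to 0.986). Igfbp4 was most like Golm1, Xdh and Abcb1b (r from 0.989 to 0.994). For Igfbp6 the genes were Apoc1, Acadl and Arvcf (r from 0.983 to 0.993), and for Igfbp7 they were Mpzl1, Egfl7 and Aifm2 (r from 0.983 to 0.984).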

How the data were processed

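Messenger RNA of 4 WT and 4 LRP1 eKO libraries was sequenced by the authors, and libraries were grouped by the sample labels. The deposited table gives each protein-coding gene a quantile-normalized signal per library. The submitters' processing notes name TopHat2, Cufflinks and mm10, whereas the paper's methods name trimGalore, STAR, featureCounts and edgeR. The unit before quantile normalization is not stated and no counts were used, so that counting error could not be estimated and the spread over the 4 libraries of a group is the only measure of precision. Quantile normalization removes global shifts between libraries.

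Log2(signal + 1) was fitted with limma 3.58.1 in R 4.3.3, with a mean-variance trend and genotype as the only term, over genes that reached a signal of 1 in 4 or more libraries, with Benjamini-Hochberg adjustment over all 11391. Fold changes on this scale understate those of low genes. The fit was tested on simulated data. Exact permutation tests used the mean log2 signal. Gene positions came from GENCODE M21, which held 21740 of the identifiers, and upstream sequences from RefSeq. The members and lists were chosen with earlier results of these data known. The genes named were all members, Lrp1, Igf1r, Insr and Igf2r, axis genes past adjusted p 0.05 and 2-fold, the 2 tested genes with the smallest adjusted p of each sublist, the 3 first markers of a list and the 3 genes most like each member. Igfals, Ins1, Pappa, Csf1r, Trf, Acta2 and the other markers named outside this rule were picked once their values were known. The cholangiocyte, erythroid, lymphocyte and neutrophil lists are given only in the closing section. Alternatives were other pseudocounts and filters, robust moderation, limma with no trend, array weights, trimmed-mean centring, a replicate block, a ratio of means and leaving out libraries.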

Additional observations from a re-analysis of the deposited data

Results flagged for a closer look

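A sample far from the rest of its group was looked for in 48 groups of 4 libraries with Dixon's ratio, the gap to the nearest library over the group's range, against the 95% critical value. Chance marks about 1 group in 20, or 2.4 of these, and 3 were marked. Igfbp4 in WT replicate 4, at 142, was low for its group, with a ratio of 0.85. The hepatocyte marker sum was highest in the same library, at 1544 with a ratio of 0.87. Trf made up 1451 of that sum, and without Trf the sum was lowest in this library, at 93.7 against 123.1 to 140.9 in the other WT libraries, as were Alb at 15.7 and Igfbp1 at 17.1. The skeletal muscle marker sum was highest there, at 45.9 with a ratio of 0.904. All 3 were in WT replicate 4.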

How the results depend on the processing

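The alternative values of the member log2 fold changes numbered 150, among them the ratios of means, which have no adjusted p. Of these 150 values, 140 kept their direction and, where they had an adjusted p, their side of the threshold. Of the other 10, 9 were those of Igf1, which stayed at 0.83 but lost the threshold with no filter (limma adjusted p = 0.15) and with robust moderation (limma adjusted p = 0.058). When 1 library was left out, Igf1 ranged from 0.66 to 1.15, and only without LRP1 eKO replicate 2 did it stay past the threshold. Igfbp5 turned from -0.04 to 0.0142 without LRP1 eKO replicate 1, with leave-one-out values from -0.11 to 0.01. The number of members higher at an adjusted p below 0.05 was 1 with no filter, a mean signal of at least 5 and robust moderation, and 1 to 2 when a library was left out. The number higher at 2-fold was 1 with array weights and without WT replicate 4 and LRP1 eKO replicate 2 together, a choice made after seeing the data, and 0 to 1 when a library was left out. The number lower at 2-fold was 1 with a pseudocount of 5 and without those 2 libraries, and 1 to 2 when a library was left out. Among axis genes, the number higher was 5 with no filter, 7 with a mean signal of at least 5, and 6 to 11 when a library was left out. The number lower was 7 with no filter and 3 to 6 when a library was left out. The number higher at 2-fold was 0 with a pseudocount of 5, no filter, a mean of at least 5 and robust moderation, and 0 to 1 when a library was left out. A mean signal of at least 5 left Igf1 and the axis genes Cd93, Pappa, Igf2bp1 and Igf2bp3 untested, so they could not be counted. The cause of the other shifts was not tested.

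Same-numbered WT and LRP1 eKO libraries correlated between -0.13 and 0.178 in their deviations from the group means. Of the 4 WT libraries 0 correlated best with their own number, so that no pairing by number was seen. With 4 libraries per group, of which 1 in each carries much of the spread, these correlations cannot exclude a pairing. With the number as a replicate block the adjusted p was 0.019 for Igf1, 1.8e-04 for Igfbp1 and 0.94 for Igfbp5, and no call of a member changed. Depth is unknown, and the limit it sets for low genes such as Igfbp5 cannot be given.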

Other observations

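Within genotypes several members varied together over the 8 libraries, which share the libraries that stand apart. After the genotype means were subtracted, Igf1 correlated with Igfbp3 (r = 0.895), Igfbp6 (r = 0.834) and Igfbp4 (r = 0.795), and negatively with Igfbp5 (r = -0.834) and Igfbp2 (r = -0.776). Igfbp2 and Igfbp7 went opposite ways (r = -0.905), as did Igfbp5 and Igfbp6 (r = -0.911). These are descriptions with no test, on pairs picked after the values were seen.

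Among the remaining marker lists, 5 of 6 tested smooth muscle genes were higher. Their list summed to 1505 to 1567 in WT and 1850 to 1936 in LRP1 eKO libraries, mostly from Acta2 and Tagln. All 3 tested skeletal muscle genes fell at least 2-fold, with sums of 27.1 to 45.9 and 4.84 to 6.34. The fibroblast list had 1 gene higher and 3 lower of 9 tested, with sums of 2047 to 2358 and 1794 to 2254. Of the mesothelial genes 1 of 6 was higher, the pan-endothelial list had 2 of 7 higher and the sinusoidal list 2 of 5. Cholangiocyte genes had 1 of 3 tested lower, erythroid genes 1 of 1 lower, neutrophil genes 1 of 1 higher, and 0 of the 6 T, B and NK cell genes had a signal high enough to be tested.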
